A study of Homo sapiens with 8 samples.

Results

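ATAC-seq maps DNA that is open to a transposase, and here it was applied to U2OS cells, a line from a human osteosarcoma. The account below concerns the response of wild-type (WT) cells to UV light. The 4 WT libraries, of 8 in the series, were 2 biological replicates of unchallenged cells (no UV) and 2 of cells that recovered for 3 h after UV-C irradiation at 20 J/m2. The irradiated cells spent those hours in fresh medium, whereas unirradiated cells were processed at once, so that effects of UV and of the change of medium and the incubation cannot be told apart. Both groups were treated with DNase before harvest, to degrade DNA from dead or damaged cells. The nuclei were then tagmented with Tn5, the transposase that inserts sequencing adapters into open DNA. The other 4 libraries came from ASH1L-/- cells, isolated as individual colonies after CRISPR/Cas9 disruption of the gene of the histone methyltransferase ASH1L, given or not given the same UV dose and time. The deposited lists hold regions of open chromatin called in each library separately on the human genome build hg38. All regions of the 4 WT lists were merged into 358541 union sites. A site was gained where both lists made 3 h post UV held a region and neither unchallenged list did, and lost in the reverse case. By that rule 14604 sites, 4.07% of all union sites, were gained and 6313 sites, 1.76%, were lost. A further 71691 sites had a region in all 4 lists and are called shared, while 217216 sites had a region in a single list.

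UV-C light joins neighbouring pyrimidines in DNA, and the lesions are removed by nucleotide excision repair once chromatin allows access to them. Irradiated cells also activate stress kinases that phosphorylate and induce AP-1, a dimer of FOS and JUN family proteins that binds its motif at enhancers, and they stabilise p53. TEAD factors, the DNA-binding partners of YAP and TAZ, and RUNX factors, of which RUNX2 directs bone cell fate, bind many enhancers of mesenchymal cells. An open site marks DNA that Tn5 could reach, and does not tell which protein lay there or which gene it served.

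The sequences below show, on the plus strand of hg38, 261 bases around the strongest summit of sites that the results turn on, since the motif contents of the gained and the lost sites differed. Capitals mark the AP-1 motif, TGANTCA, in the first set. The sites nearest the transcription start sites (TSS) of SOX11, AADAT and ADO were the 3 strongest gained sites. The windows lie at chr2:5798158-5798418, chr4:170741955-170742215 and chr10:62779646-62779906.
SOX11 site, gained: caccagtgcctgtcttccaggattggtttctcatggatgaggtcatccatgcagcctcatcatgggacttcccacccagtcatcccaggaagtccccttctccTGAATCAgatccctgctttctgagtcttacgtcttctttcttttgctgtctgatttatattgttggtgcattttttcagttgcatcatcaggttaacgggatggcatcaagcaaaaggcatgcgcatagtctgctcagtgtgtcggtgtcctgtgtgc
AADAT site, gained: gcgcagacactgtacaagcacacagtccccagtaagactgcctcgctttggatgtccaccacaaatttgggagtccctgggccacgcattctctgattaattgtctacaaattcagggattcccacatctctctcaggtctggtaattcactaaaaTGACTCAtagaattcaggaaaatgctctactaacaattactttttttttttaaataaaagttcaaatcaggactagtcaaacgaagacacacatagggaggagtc
ADO site, gained: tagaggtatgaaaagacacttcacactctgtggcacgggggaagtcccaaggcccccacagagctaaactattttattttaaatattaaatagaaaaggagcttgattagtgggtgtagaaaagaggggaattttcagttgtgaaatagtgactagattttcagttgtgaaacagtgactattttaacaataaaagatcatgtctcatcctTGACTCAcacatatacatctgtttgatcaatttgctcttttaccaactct
Each of these windows holds 1 AP-1 match. The window of the fourth strongest gained site, at chr12:128754320-128754580 and nearest SLC15A4, holds no AP-1 match and is printed to show such a case.
SLC15A4 site, gained: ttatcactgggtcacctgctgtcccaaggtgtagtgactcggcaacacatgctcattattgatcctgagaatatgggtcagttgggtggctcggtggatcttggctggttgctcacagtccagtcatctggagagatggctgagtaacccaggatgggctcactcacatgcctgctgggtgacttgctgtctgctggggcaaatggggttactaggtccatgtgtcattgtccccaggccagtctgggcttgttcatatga

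In the second set, capitals mark the TEAD motif, GGAATG, or the RUNX motif, TGTGGT, on either strand, so that CATTCC and ACCACA are the same motifs read from the other strand. The site nearest EBF1 was the strongest lost site, and the sites in GPC5 and nearest DNAJC10 were the shared sites that fell most. The windows lie at chr5:158634773-158635033, chr13:92657588-92657848 and chr2:182669826-182670086.
EBF1 site, lost: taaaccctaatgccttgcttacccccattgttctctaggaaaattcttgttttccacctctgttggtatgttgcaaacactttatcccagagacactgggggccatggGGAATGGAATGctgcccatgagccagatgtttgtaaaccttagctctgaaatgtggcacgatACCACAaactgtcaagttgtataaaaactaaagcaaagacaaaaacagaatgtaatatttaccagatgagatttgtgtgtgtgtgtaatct
GPC5 site, fall: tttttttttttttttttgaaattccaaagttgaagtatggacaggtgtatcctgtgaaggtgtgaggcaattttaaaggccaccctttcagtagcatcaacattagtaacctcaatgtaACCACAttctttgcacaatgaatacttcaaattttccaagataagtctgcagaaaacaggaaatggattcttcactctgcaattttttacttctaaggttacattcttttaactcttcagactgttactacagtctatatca
DNAJC10 site, fall: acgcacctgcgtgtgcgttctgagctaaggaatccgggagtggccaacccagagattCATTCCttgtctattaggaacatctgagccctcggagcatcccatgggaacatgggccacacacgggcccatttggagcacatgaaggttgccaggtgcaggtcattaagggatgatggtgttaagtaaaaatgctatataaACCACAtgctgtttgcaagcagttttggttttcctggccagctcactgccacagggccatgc
None of these 3 windows holds an AP-1 match. The EBF1 window holds 2 overlapping TEAD matches and 1 RUNX match, the GPC5 window 1 RUNX match, and the DNAJC10 window 1 of each. The windows of the second and the third strongest lost sites, at chr10:14185698-14185958 in FRMD4A and at chr18:24930975-24931235 nearest ZNF521, hold no match of the 3 motifs.

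The lists of the 2 groups differed in make-up. The unchallenged lists held 178662 and 189651 regions with median widths of 242 and 291 bp, and the lists made 3 h post UV held 161647 and 166875 regions with median widths of 357 and 444 bp. Mean read pileup over the genome, a measure of depth, was estimated as nearly the lowest local background recovered at the listed regions. The estimate was 2.10 and 1.74 without UV and 2.53 and 2.67 after UV. Of the regions, 78.8% and 78.5% without UV and 85.7% and 94.2% after UV had a q-value below 0.05. The irradiated libraries were thus deeper by the estimated pileup, and their regions were wider. The part of this in the counts of gained and lost sites was not tested. As a check of the cell type, all 12 osteosarcoma and mesenchymal markers examined had a region within 1 kb of a TSS in at least 1 WT list. In all 4 lists it was 9 of 12, among them VIM, COL1A1 and LGALS1, while TWIST1, CDH11 and S100A6 lacked one in some lists. A shared site lay there in 8 of the 12 and in 66.9% of all protein-coding genes, so that this count does not set the markers apart. Of all protein-coding genes 17.1% had no region there in any of the 4 lists. Of 12 markers of other cell types, 8 had one in some list and 3 in all 4, namely the epithelial EPCAM and CDH1 and the glial GFAP, while PTPRC, CD3E, INS and MYOD1 had none.

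Most gained and lost sites were weak in the lists that held them. Levels were read as the percentile of a site's fold enrichment, the ratio of the pileup at the summit to the local background, within its own list. Gained sites had median percentiles of 42.6 and 38.7 in the 2 lists made 3 h post UV, and lost sites of 35.6 and 32.6 in the 2 unchallenged lists. Shared sites had medians between 76.3 and 80.2. In the top quartile of both lists that held them were 339 gained sites, 2.32% of the class, and 39 lost sites, 0.618%, against 37.1% of shared sites in the top quartile of all 4 lists. The median pileup at the summit was 14 and 19 for gained sites and 9 and 8 for lost sites.

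**Figure D1:**
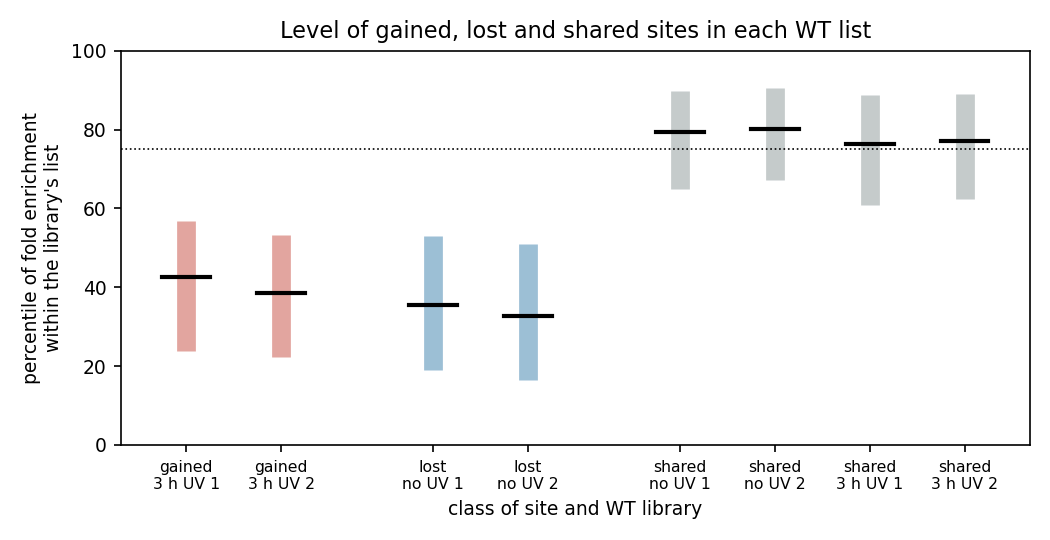
Percentile of fold enrichment within each WT list (vertical axis) for gained, lost and shared sites. Bars span the middle 50% of sites, black lines are medians, and the dotted line is percentile 75. Gained and lost medians lie between 32.6 and 42.6 and shared medians between 76.3 and 80.2.

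A minority of gained sites was among the strongest regions of the irradiated cells. The gained site with the highest level lay at chr2:5797989-5798622 between genes, 105904 bp from the TSS of SOX11, a transcription factor of neural development. Its fold enrichment was 20.4 and 23.8 in the 2 libraries 3 h post UV, percentiles 99.6 and 99.7, and neither unchallenged list held a region there. The ASH1L-/- lists, which the rule did not use, held this site at percentiles 99.4 and 98.9 after UV and had no region without UV. The site at chr4:170741746-170742308, nearest AADAT, an aminotransferase of amino acid metabolism, reached fold enrichments of 15.6 and 20.8. The site at chr10:62779427-62780088, nearest ADO, a thiol dioxygenase, reached 18.7 and 18.4. Both were again in both irradiated ASH1L-/- lists and in neither unchallenged one. The 7 next gained sites by level had percentiles of at least 93.1 in both lists and lay nearest SLC15A4, a lysosomal peptide transporter, ATP2B1, a calcium pump, FRK, a tyrosine kinase, RFC3, a subunit of the replication clamp loader, MTAP, an enzyme of methionine salvage, ZMYND11, a reader of methylated histone H3, and ZPBP, a sperm protein. None of the 10 lay in a promoter, and their distances to the nearest TSS ran from 5758 to 720860 bp. All 10 had a region in both irradiated ASH1L-/- lists and 6 had none in either unchallenged ASH1L-/- list. Of all gained sites 26.3% met both conditions, against 4.13% of all union sites.

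The strongest lost sites were lower in level than the strongest gained ones. The site at chr5:158634561-158635159, 73106 bp from the TSS of EBF1, a B cell transcription factor, had fold enrichments of 9.63 and 12.6 in the unchallenged libraries, percentiles 91.6 and 93.7, and no region after UV. In ASH1L-/- cells it was listed in all 4 libraries, at percentiles 96.6 and 95.9 without UV and 41.3 and 41.6 after UV. A site in an intron of FRMD4A, a scaffold protein of cell polarity, at chr10:14185425-14186029 had fold enrichments of 8.39 and 9.59. A site nearest ZNF521, a zinc finger transcription factor, at chr18:24930808-24931423 had 7.1 and 15.9. The other 7 lay nearest POU3F1, ITGA6, CSNK1G3, SUMF1, TSN, ANKFN1 and KCTD12, with percentiles of at least 79.3 in both lists. Of the 10, 9 were in both unchallenged ASH1L-/- lists and 3 were in neither irradiated one. Of all lost sites 8.08% met both conditions, against 1.30% of all union sites. An AP-1 match lay within 100 bp of the summit of 5 of the 10 gained and 0 of the 10 lost sites, a TEAD match in 1 and 3, and a RUNX match in 1 and 4.

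AP-1 matches were more frequent in gained than in lost sites. A match within 100 bp of the summit was found in 3833 gained sites, 26.2% (95% Wilson interval 25.5 to 27), and in 423 lost sites, 6.70% (6.11 to 7.34). Shared sites held one in 23.2% and all union sites in 13.3%. The intervals cover counting over sites alone, and sites are not replicates. Without the second irradiated library, so that a region in the other one made a site gained, the shares were 13.1% of gained and 10.2% of lost sites, and without the first they were 17.9% and 6.91%. With only the top quartile of each list they were 43.5% and 14%, where the other side could still hold a weaker region. The motif was searched as TGANTCA, which reads the same letters from either strand apart from its centre base. Matches with C or G at the centre lay in 18.9% of gained and 4.20% of lost sites, and those with A or T in 8.79% and 2.61%, so that both forms were more frequent in gained sites. This division was chosen after the data were seen.

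The AP-1 share was higher in the stronger gained sites. Gained sites were grouped by the lower of their 2 percentiles, and the share with an AP-1 match was 21.6% up to percentile 25, 26.4% from 25 to 50, 33.8% from 50 to 75 and 39.5% above 75, the last of 339 sites. In the corresponding bins of lost sites it was between 6.07% and 7.69%. Gained sites held AP-1 matches most often between genes, 29.2%, and in introns, 26.7%, and less often in promoters, 12.6%. Shared sites held them in 27.2% between genes, 28.4% in introns and 7.48% in promoters, so that outside promoters the 2 classes were close. Promoters among all union sites held one in 7.04%. Among all regions above percentile 75 of a list, AP-1 matches lay in 22.1% and 24.8% of regions in the unchallenged WT lists and in 29.0% and 28.3% in the irradiated ones.

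TEAD and RUNX matches showed the opposite order. A TEAD match lay in 18.0% of lost sites (17.1 to 19) and 12.6% of gained sites (12.1 to 13.2), against 13.7% of all union sites. Shared sites held one in 17.1%, close to the lost sites. In introns and between genes TEAD matches lay in 17.6% and 18.4% of lost sites and in 19.1% and 18.5% of shared sites. A RUNX match lay in 21.1% of lost sites (20.1 to 22.1) and 15.2% of gained sites (14.6 to 15.7), against 16.6% of all union sites. In shared sites the RUNX share was 17.0%. From the lowest to the highest bin of level, the share in lost sites went from 16.5% to 33.3% for TEAD and from 19.6% to 33.3% for RUNX, where the highest bin held 39 sites. In the next bin, of 563 sites, it was 26.6% and 27.7%. No such gradient was present for TEAD in gained sites, with 12.3% in the lowest and 10.6% in the highest bin. Among the other motifs, ATF4, searched as TGATGNAAT and named for a factor of the integrated stress response, lay in 1.55% of gained and 0.808% of lost sites against 1.09% of all sites. The p53 half-site lay in 6.22% and 6.40%, the CTCF motif, CCACNAGGG, in 0.883% and 1.09%, and the C/EBP motif, TTGCNNAA, in 8.64% and 9.01%, each with overlapping intervals. The SP/KLF motif, GGGCGG, common in promoters, lay in 6.77% of gained, 4.96% of lost and 13.6% of shared sites, and the NFY motif, CCAAT, in 25.4%, 23.1% and 23.5%. The CRE and E-box palindromes TGACGTCA and CACGTG lay in 0.260% and 2.77% of gained and 0.0792% and 3.29% of lost sites, and the ETS, CArG, NRF1 and EGR motifs in 0.918%, 1.03%, 0.110% and 0.0890% of gained and 0.935%, 1.27%, 0.0634% and 0.0634% of lost sites.

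**Figure D2:**
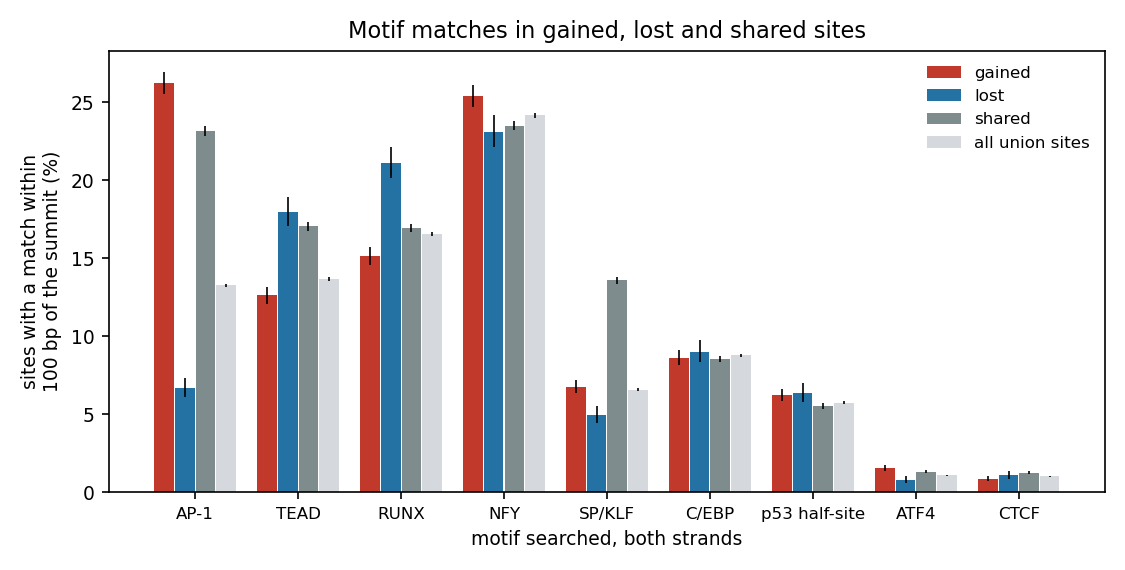
Share of sites with a motif match within 100 bp of the summit (vertical axis, %) for 9 motifs in gained, lost, shared and all union sites. Bars are shares with 95% Wilson intervals. AP-1 stands at 26.2% in gained and 6.70% in lost sites, and TEAD and RUNX stand higher in lost than in gained sites.

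The AP-1 matches lay beside the summits rather than on them. In gained sites their density was 1.01 matches per kb of sequence in the 20 bp at the summit, 2.82 and 2.87 in the 20 bp centred 120 bp to either side, and between 0.24 and 0.40 from 240 bp outward. Shared sites had the same form, with 0.96 at the summit and 2.23 and 2.22 at 120 bp. In lost sites the density was 0.25 at the summit and 0.47 and 0.50 at 120 bp, the highest values within 500 bp. Where a summit lies depends on how the peak caller shifts and extends reads, for which the methods name default settings only, and the part of these settings in the offset was not tested. The share of sites with a match therefore depended on the window. It was 9.89% of gained and 3.03% of lost sites in a window of 100 bp centred on the summit and 53.3% and 13.1% in one of 400 bp, so that the share in gained sites was the higher one in every window tried. TEAD and RUNX matches in lost sites were denser around the summit, at 1.01 and 1.13 matches per kb, than 300 bp before it, at 0.60 and 0.77, or 300 bp after it, at 0.76 and 0.79. For TEAD 1 bin further out, 420 bp before the summit, reached 0.90.

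**Figure D3:**
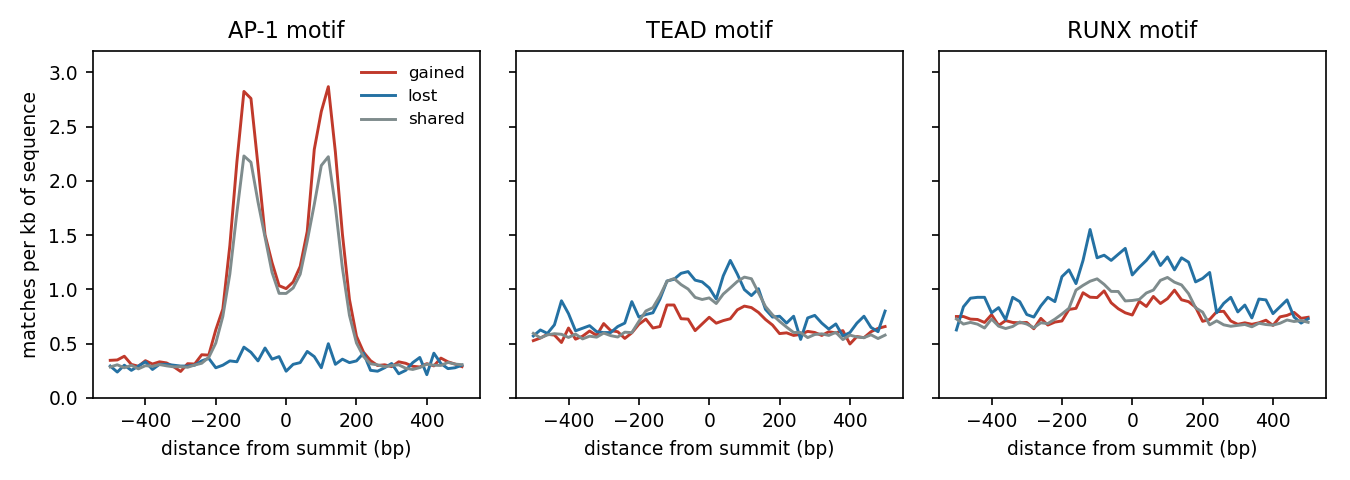
Matches per kb of sequence (vertical axis) in bins of 20 bp against distance from the summit (horizontal axis, bp) for the AP-1, TEAD and RUNX motifs in gained, lost and shared sites. AP-1 matches of gained and shared sites peak 120 bp to either side of the summit, at 2.82 and 2.87 per kb in gained sites, and lost sites stay at or below 0.50.

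Gained and lost sites also differed in where they lay. Promoters, the sequence within 1 kb of a TSS of a protein-coding gene, held 1640 gained sites, 11.2% of the class (10.7 to 11.8), and 359 lost sites, 5.69% (5.14 to 6.29), against 10.0% of all union sites. Of all promoter sites 4.56% were gained and 0.998% lost, of intronic sites 3.96% and 1.7%, of exonic sites 3.12% and 1.82%, and of intergenic sites 4.11% and 1.97%. The order of the promoter shares turned when the top quartile of each list was used alone, with promoters making 5.58% of gained and 18.6% of lost sites. A site then counted as gained or lost even where the other side held a weaker region, below that quartile. In full lists the shares were 12.7% against 12.1% when windows of 200 bp around the summits were compared in place of whole regions. They were 7.42% against 5.17% when regions were joined across gaps of up to 500 bp. Without the second irradiated library the shares were 8.18% and 6.95%. The difference in promoter share thus depended on how the sites were compared.

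Gained sites had a median width of 429 bp and lost sites of 341 bp, and the median over all union sites was 252 bp. The widths moved with the wider regions of the irradiated lists, and the part of this was not tested. The median GC content of the 200 bp around the summit was 46.5% in gained, 49.0% in lost and 49.5% in shared sites. Gained sites lay 9705 bp from the nearest shared site in the median and lost sites 12808 bp, with 6.92% and 3.64% within 1 kb of one. By chromosome, the share of union sites gained ran from 3.43% on chromosome 10 to 5.50% on chromosome 13 among the autosomes, and was 7.04% on chromosome X. The share lost ran from 1.26% on chromosome 13 to 1.97% on chromosome 21, and was 1.28% on chromosome X. Chromosomes 13 and X thus had the most gained sites for each lost one, 4.38 and 5.50, against 1.78 to 2.96 on the remaining chromosomes.

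Some long genes gathered many sites. NRG1, an EGF family growth factor gene on chromosome 8, held 15 gained and 3 lost sites among 140 union sites, or 10.7% gained. TMEM132D held 13 gained of 124 sites, or 10.5%, PTPRN2, a phosphatase-like protein of secretory vesicles, 13 of 157, or 8.28%, RUNX1 12 of 211, or 5.69%, and SDK1, an adhesion protein of synapses, 13 of 342, or 3.8%. These shares stand beside 4.07% over all union sites, which SDK1 did not exceed. NTM, a neural adhesion protein, held most lost sites, 10 of 124 or 8.06%, with 4 gained. ALDH1A2, an enzyme of retinoic acid synthesis, held 7 lost and 11 gained sites among 147, or 4.76% lost. CTNNA3 held 7 lost sites of 230, or 3.04%, LRMDA 7 of 248, or 2.82%, and NRXN3 7 of 334, or 2.10%, beside 1.76% over all union sites.

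Of 19970 protein-coding genes, 1654, or 8.28%, had a gained site within 1 kb of a TSS and 366, or 1.83%, had a lost one. Of the 1654 genes 1257 also had a shared site within 1 kb of a TSS, though not always of the same TSS. A shared site there was present in 66.9% of all protein-coding genes. Of the genes with a gained site 187 had no region within 1 kb of a TSS in either unchallenged list. The strongest gained sites of these 187 genes belonged to AKR1B15, an aldo-keto reductase, with percentiles of 82.7 and 80.8 3 h post UV, and to SGPP2, a sphingosine phosphate phosphatase, with 91.0 and 78.1. The promoter sites of both held an AP-1 match and had a region in both irradiated but neither unchallenged ASH1L-/- list. The third, at percentiles 78.6 and 77.1, belonged to ENSG00000287908, which has no symbol in the annotation, and held an AP-1 match. The chemokine gene CCL4 followed with 77.1 and 70.6, and CCDC70 with 70.2 and 72.5. In the other direction 60 genes had a lost promoter site and no region in either irradiated list. The strongest were the olfactory receptor genes OR7A5 and OR7C1, which share 1 site at percentiles 65.0 and 60.1, and NODAL, a TGF-beta family ligand, at 53.5 and 86.7. VCAN, a matrix proteoglycan, stood at 69.1 and 46.7.

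Promoters of chosen genes were examined through 10 lists of 178 genes in all. Beside damage and stress response genes these held ribosomal protein genes, TEAD and YAP genes, DUSP phosphatase genes and genes around ASH1L. Values over all 10 lists are therefore not values of the damage response alone. Of these genes 20, or 11.2%, had a gained promoter site, against 8.28% of all protein-coding genes, and 18 of the 20 also had a shared site. Among the p53 targets it was 4 of 22, the growth arrest gene GADD45A, the sestrin SESN2, the kinase PLK3 and the nuclease AEN. Of 30 nucleotide excision repair genes 3 had one, the damage sensor subunit DDB1, the TFIIH helicase ERCC3 and the scaffold XRCC1. Of 14 genes of the integrated stress response 4 had one, the kinase EIF2AK3, its downstream genes TRIB3 and SESN2, and CEBPG. KLF10 and MYC among the 22 immediate-early genes, TNFAIP3 and ICAM1 among the 16 NF-kB genes, WWTR1, CCN1 and AXL among the 16 TEAD and YAP genes, DUSP10 among 8 phosphatase genes and NSD1 among 13 genes around ASH1L had one too. The gained sites were weak. The DUSP10 site stood at percentiles 60.0 and 54.7 and the ICAM1 site, of an adhesion receptor for leukocytes, at 60.1 and 47.3, while the sites of MYC, PLK3 and TNFAIP3 lay at or below percentile 1.14 in both lists. In 2 of the 178 genes, or 1.12%, a promoter site was lost against 1.83% of all genes. The lost site of WWTR1, which codes for TAZ, stood at percentiles 77.6 and 10.7. Among the cell type markers SPARC, CDH1 and SFTPC had a gained and RUNX2 and CDH1 a lost promoter site.

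At the 71691 shared sites the levels themselves were compared, as quantile-normalised log2 fold enrichment, with limma. After adjustment over all sites 158, or 0.22%, rose and 43, or 0.0600%, fell at an adjusted p of 0.05. The adjusted p of the called sites lay between 0.0485 and 0.0499 and their standard errors between 0.25 and 0.34. Rises ran from 1.55 to 2.53 on the log2 scale and falls from −1.56 to −2.32. The counts depended on the scaling and on single libraries. With median centring in place of quantile normalisation 1780 rose and 1670 fell, the 201 sites among them. Without the first or without the second irradiated library the count was 0 in limma, with 6567 and 6139 sites at an unadjusted p below 0.05. It was 1255 up and 627 down without the first unchallenged library, and 1926 up and 862 down without the second. With −log10 p in place of fold enrichment the count was 0 as well, with 13174 sites at an unadjusted p below 0.05, of which 7145 were higher and 6029 lower.

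Fold enrichments in the following are those deposited, while log2 differences are those after normalisation. The largest rise was between genes and nearest LINGO2, a leucine-rich repeat membrane protein. Its fold enrichment was 2.58 and 3.65 in the unchallenged libraries and 19.7 and 20.7 after UV, a log2 difference of 2.53 (SE 0.27). The groups did not overlap there, as follows from choosing the largest rises, and the values after UV stood at percentiles 99.4 and 98.6. In an intron of ZFAND3, a zinc finger protein, the values at chr6:38131479-38132111 were 2.26 and 2.92 without UV and 16.2 and 16.9 after it, a log2 difference of 2.49 (SE 0.27). A site at chr11:24894084-24894668 in LUZP2, a leucine zipper protein, went from 2.58 and 2.55 to 13.5 and 19.7. The site nearest ANXA1, a phospholipid-binding regulator of inflammation, at chr9:73643275-73643851 had 2.26 and 4.38 against 13.8 and 20.3. A further 5 of the 10 largest rises lay in or nearest ABCA13, POM121L12, ANKRD50, PCDH7 and USP31, with log2 differences of 2.25 to 2.44. An AP-1 match lay within 100 bp of the summit of 8 of the 10.

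Among the falls, the largest was at chr13:92657415-92658054 in GPC5, a heparan sulfate proteoglycan. Its fold enrichment was 7.1 and 17.9 without UV and 2.55 and 2.72 after it, a log2 difference of −2.32 (SE 0.34). The site nearest DNAJC10, a disulfide reductase of the endoplasmic reticulum, at chr2:182669631-182670249 had 6.80 and 11.4 against 2.44 and 2.11. The site nearest BMP4, a bone morphogenetic protein, at chr14:53998899-53999664 had 17.0 and 16.4 against 4.17 and 7.06, a log2 difference of −1.90 (SE 0.25). A further 6 of the 10 largest falls lay in or nearest FZD1, a Wnt receptor, H3Y1, CDC5L, SCAF4, UBE3D and GALNT10, with log2 differences of −1.95 to −2.08. A RUNX match lay at 7 of the 10, a TEAD match at 3 and an AP-1 match at 0.

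**Figure D4:**
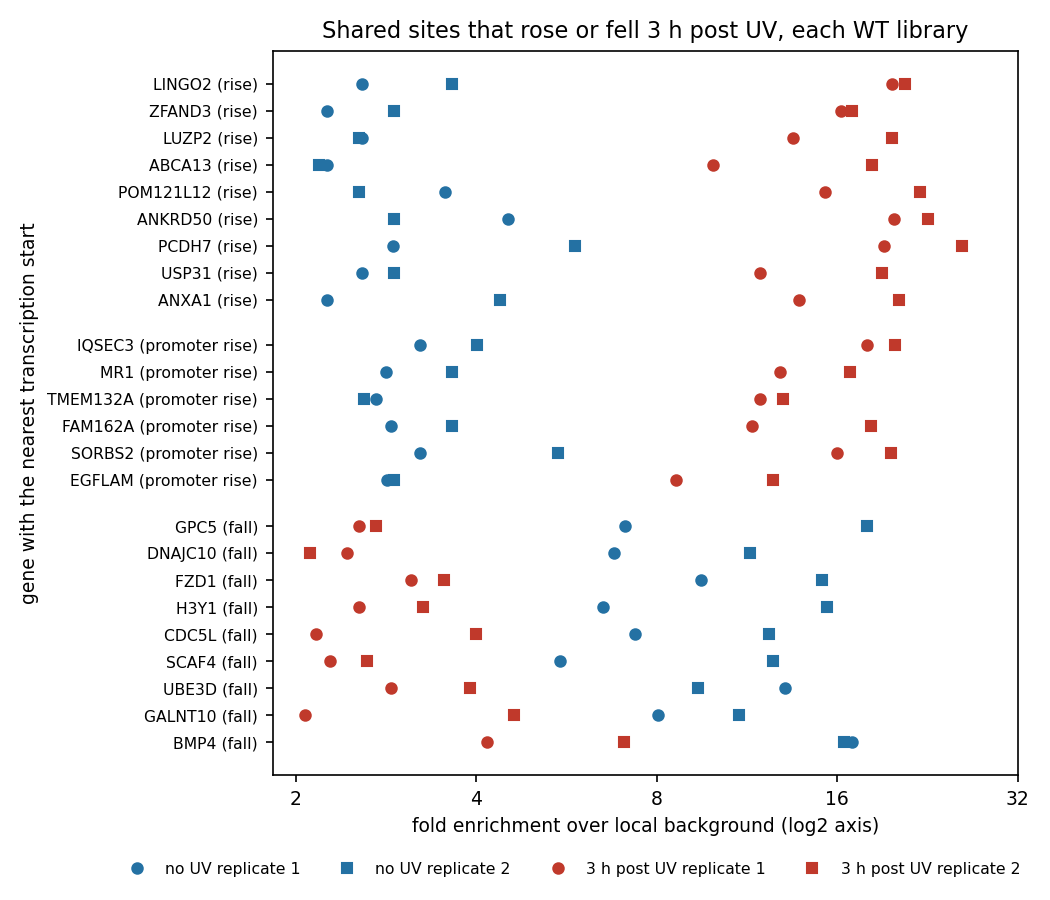
Fold enrichment in each of the 4 WT libraries (horizontal axis, log2 scale) at 9 of the 10 shared sites with the largest rise, the 6 promoter sites that rose and 9 of the 10 sites with the largest fall, by the gene with the nearest TSS. Blue marks are unchallenged and red marks irradiated libraries, circles replicate 1 and squares replicate 2. At no site do the groups overlap, as for LINGO2 with 2.58 and 3.65 against 19.7 and 20.7. The sites were chosen by their difference in these same libraries, so that this separation follows from the choice.

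Over all called sites, AP-1 matches lay in 82 of 158 rises, 51.9%, in 5 of 43 falls, 11.6%, and in 23.2% of all shared sites. TEAD and RUNX matches lay in 37.2% and 39.5% of the falls, in 14.6% and 12.7% of the rises, and in 17.1% and 17.0% of all shared sites. The median log2 difference was 0.11 over the 16610 shared sites with an AP-1 match and −0.07 over the 55081 without one. Few promoters were among the called sites. Of 15549 shared promoter sites 6 rose and 0 fell in limma, with 460 higher and 893 lower at an unadjusted p below 0.05. Their median log2 difference was −0.14 against −0.03 over all shared sites. The mean log2 level of promoter sites was 3.12 and 3.07 without UV and 3.06 and 2.89 after it, so that the lower level lay mostly in the second irradiated library. With median centring 90 rose and 172 fell, and the medians were −0.24 for promoters, 0.03 for AP-1 sites and −0.11 for all shared sites. The promoter sites that rose were those of IQSEC3, MR1, TMEM132A, FAM162A, SORBS2 and EGFLAM. At MR1, which presents vitamin metabolites to T cells, the fold enrichment was 2.83 and 3.65 without UV and 12.8 and 16.8 after it, a log2 difference of 1.93 (SE 0.26). At SORBS2, an actin-associated scaffold, it was 3.23 and 5.47 against 16 and 19.7, and at TMEM132A 2.72 and 2.60 against 11.9 and 13.0.

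No gene of the 10 lists passed the test in limma at the strongest shared site of its promoter, which 164 of the 178 genes had, and 3 were higher and 14 lower at an unadjusted p below 0.05. The median log2 difference of the 164 sites was −0.29, and it was above 0 in 17.7% of them. Over all 13359 genes with such a site the median was −0.16 and 28.7% were above 0. Promoter levels were lowest in the second irradiated library, and the part of that library in these medians was not tested. The list medians ran from −0.18 for nucleotide excision repair genes to −0.39 for ribosomal protein genes. They were below 0 with median centring too, and with −log10 p all but that of the NF-kB genes, at 0.11. With median centring NFKBIZ and IL1A rose and GADD45A, CCL2 and TEAD3 fell.

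The genes of the AP-1 subunits were open before and after UV. Percentiles within the lists are given here, since deposited fold enrichments were not on 1 scale, with medians over all shared sites of 5.70 and 6.93 without UV and 6.80 and 10.2 after it. The JUN promoter stood at 98.3 and 98.2 without UV and 97.7 and 91.0 after it, that of ATF3 at 99.4 and 99.4 against 99.3 and 87.2, and that of FOS at 75.5 and 69.8 against 70.7 and 52.5. Their log2 differences were −0.29, −0.49 and −0.23 with standard errors of 0.28 to 0.33. At CDKN1A, the p53-induced cell cycle inhibitor, the percentiles were 54.7 and 42.4 against 19.6 and 10.8, with a log2 difference of −0.51 (SE 0.26). The genes of the damage sensors of global genome repair were likewise open in all 4 libraries. DDB2 stood at 90.6 and 91.9 against 87.3 and 76.8, and XPC at 94.2 and 97.9 against 98.0 and 91.6. ASH1L itself stood at 92.0 and 93.7 against 87.5 and 81.1. The smallest adjusted p of limma in the 10 lists was 0.0735, at NFKBIZ, a regulator of NF-kB, with a log2 difference of 1.41 (SE 0.29) and percentiles of 66.8 and 80.9 against 98.3 and 95.6. It was 0.0816 at IL1A, an inflammatory cytokine, with 1.24 (SE 0.27) and 44 and 68.1 against 84.9 and 88.1. NFKBIZ, IL1A, CCL2 and TEAD3 were singled out after their values were seen.

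The ASH1L-/- libraries gave the same sites a second reading, since neither the rule nor the WT test had used them. Of the sites gained in WT cells 59.9% and 65.5% had a region in the 2 irradiated ASH1L-/- lists and 27.6% and 18.5% in the 2 unchallenged ones. Of the sites lost in WT cells it was 17.8% and 23.7% after UV and 41.1% and 26.5% without UV. Over all union sites the shares were 34.5% and 38.3% after UV and 35.4% and 28.4% without it. The depth of these libraries, as estimated mean pileup, was 2.45 and 2.81 after UV and 5.87 and 1.39 without it. The groups of 2 libraries did not overlap for either class, and with 2 against 2 an exact permutation test could not go below 1 in 3. Gained sites with an AP-1 match were found in 65.7% and 70.6% of cases after UV and in 24.5% and 15.6% without UV. Those without a match were found in 57.8% and 63.8% and in 28.7% and 19.6%.

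Of the 158 shared sites that rose in WT cells, 90 lay in all 8 lists. All 90 had a positive log2 difference in ASH1L-/- cells as well, with a median of 1.21, a lowest value of 0.21 and a WT median of 1.81. Of the 43 that fell, 37 lay in all 8 lists and all 37 had a negative difference in ASH1L-/- cells, with a median of −1.27 against −1.7 in WT cells. Among the 60500 shared sites that could be matched, 47.1% were positive in ASH1L-/- cells. The difference between the genotypes was tested as an interaction in limma over 60323 sites. No site passed at an adjusted p of 0.05, while 2406 sites, 3.99%, had an unadjusted p below 0.05, and this does not show that the genotypes respond alike. The mean log2 fold enrichment of sites with an AP-1 match exceeded that of sites without one by 0.03 and 0.10 in the unchallenged WT libraries and by 0.26 and 0.26 after UV. In ASH1L-/- cells the same difference was 0.07 and 0.02 without UV and 0.22 and 0.20 after UV.

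**Figure D5:**
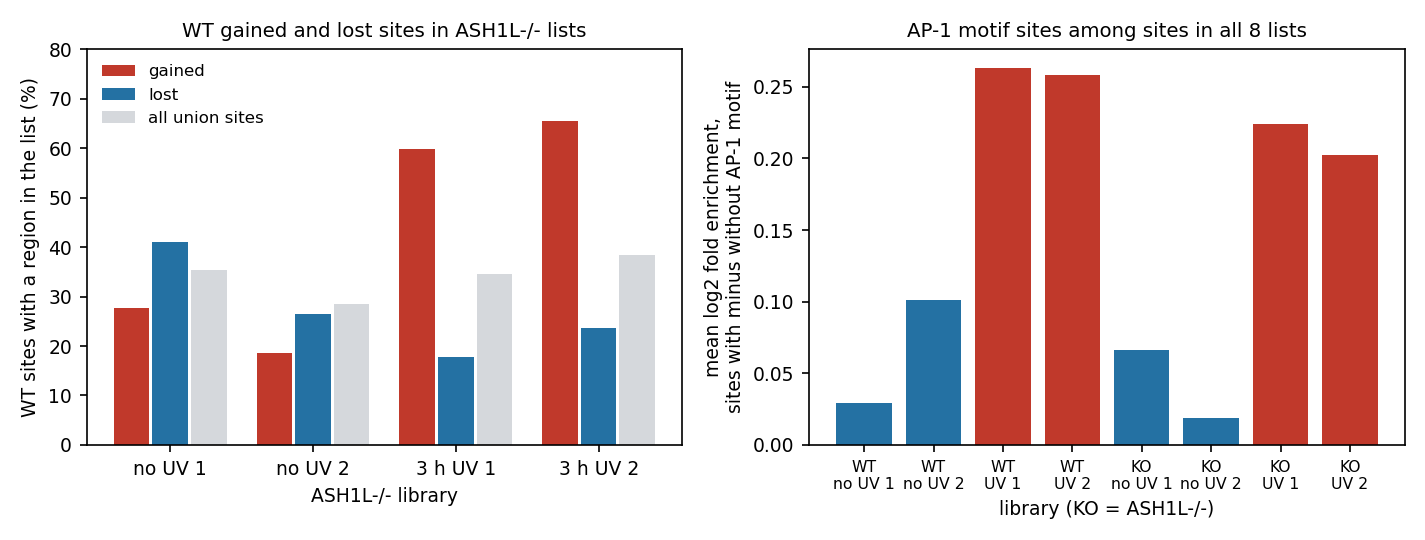
Left, share of WT gained, WT lost and all union sites with a region in each ASH1L-/- list (vertical axis, %). Right, mean log2 fold enrichment of sites with minus sites without an AP-1 match in each of the 8 libraries (13887 and 46436 sites, KO for ASH1L-/-). Gained sites stand at 59.9% and 65.5% in the irradiated lists against 27.6% and 18.5%, and the AP-1 difference is at least 0.20 after UV and at most 0.10 without UV.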

How the data were processed

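ATAC-seq libraries of U2OS cells were taken as 2 biological replicates in each of 4 groups, named so in the sample titles and described in the study as independent experiments. Per the submitters' notes and the methods, the authors trimmed reads with cutadapt 1.9.1, aligned them with Bowtie2 2.4.5 to hg38, filtered with SAMtools 1.7, bedtools 2.29.2 and Picard, and called peaks with MACS2 2.2.7.1 in each library separately. The deposited lists held a fold enrichment (the ratio of summit pileup to local background), a −log10 p-value and a −log10 q-value for each summit, and a score, which was not used. The authors normalised none of these between libraries. The lists reached down to a p-value of 0.01. Read counts were not given, so that depth was estimated. The local background at each region was recovered from the fold enrichment and the p-value, and nearly its lowest value was taken as mean pileup.

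Regions were merged into union sites where they overlapped by at least 1 bp, and a site took the summit and level of its strongest region. Sites were placed by their summit on GENCODE release 44. Motifs were searched on both strands within 100 bp of the summit with pysam 0.24.0. No test was made on gained and lost counts, for which 2 libraries against 2 cannot go below an exact p of 1 in 3. Levels of shared sites were tested with limma 3.58.1 (R 4.3.3) after quantile normalisation, with Benjamini-Hochberg adjustment over all shared sites and a threshold of 0.05. Alternatives were other sets of regions, other windows, other scalings, the replicate number as a block, and leaving out each library. The members, gene lists and motifs were chosen with earlier results of these data known. The sites named were the 10 strongest gained and lost sites, the 10 largest rises and falls, all promoter rises, the 5 genes with most gained or lost sites, the list genes with a gained or lost promoter site, and 7 response genes named in any case. Some named items are not reported here.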

Additional observations from a re-analysis of the deposited data

How the results depend on the processing

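Gained and lost sites were defined by presence in 2 libraries a side. With regions of q below 0.05 in all 4 lists the lost count fell from 6313 to 3549, and at q up to 0.01 it was 1966, while the gained count was 14804 and 15138 against 14604. Under these limits a site can also become gained when only its unchallenged region misses them. With the top quartile of each list, a site could be gained or lost while the other side still held a weaker region. The gained count was then 3189 and the lost count 4291, so that the order of the 2 counts turned. It was 12433 gained and 8827 lost with gaps of 500 bp, and 16359 and 8891 with summit windows. The counts ran from 20798 to 57370 gained and from 7543 to 77706 lost when single libraries were left out, as 1 library then decided a side.

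The difference in promoter share, gained minus lost in percentage points, reversed to −13.0 with the top quartile, and was 2.26 with gaps of 500 bp, 0.666 with summit windows and 6.66 with promoters of 2 kb, and between 1.23 and 6.96 without single libraries. For the AP-1 motif it was 29.5 with the top quartile, 20.7 with gaps of 500 bp, 16.5 with summit windows, 6.87 in a window of 100 bp, 40.2 in one of 400 bp, and 2.85 to 19.4 without single libraries. For the CTCF motif, at −0.210 in full lists, it was −0.950 with the top quartile and −0.206 to 0.127 without single libraries, reversing to 0.0263 and 0.127 without the first or second unchallenged library.

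Of shared sites, 1780 rose and 1670 fell with median centring, 0 and 0 with −log10 p in limma, 299 and 103 among sites above the median level, and 226 and 78 with q below 0.05. Without single libraries 0 to 1926 rose and 0 to 862 fell. The lone library of a group was then assumed to vary like the other group. Deviations of equal replicate numbers had a correlation of 0.03, and the numbers were not taken as pairs. With 2 pairs this cannot show whether equal numbers shared a batch, and the titles do not say. With the replicate block 283 sites rose and 113 fell, including the 201. At the 26 named shared sites no alternative reversed a difference, while 78 of 204 values no longer passed the threshold, with adjusted p from 1.13e-09 to 0.583 in limma. The 26 sites were chosen for large differences in the same libraries that the alternatives used. The absence of reversals therefore follows largely from the choice. The cause of the changes under the alternatives was not tested, and 2 libraries a side limit the precision.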
